A study of Homo sapiens with 10 samples.

Results

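The genes described here are 44 members of the cell cycle machinery, found by their symbols among the 28265 gene symbols counted in 10 RNA-seq libraries of human embryonic stem cell (hESC) derived thyroid cells. The 44 genes were 5 D-type cyclin and partner kinase genes (CCND1, CCND2, CCND3, CDK4 and CDK6), 4 genes of the entry into S phase (CCNE1, CCNE2, CDK2 and CDC25A), the CDK inhibitor gene CDKN1B, 4 transcription factor genes (E2F1, E2F2, FOXM1 and MYBL2), 10 DNA replication genes (MCM2 to MCM7, PCNA, RRM1, RRM2 and TYMS) and 20 genes of G2 and mitosis. All 44 were found, and all 44 passed the filter of at least 5 counts in at least 2 libraries that left 21014 genes to test.

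A cell commits to division when D-type cyclins bound to CDK4 or CDK6 phosphorylate the retinoblastoma protein, which releases E2F transcription factors. E2F then switches on the genes that license replication origins, copy DNA and make nucleotides, and a later programme, driven by MYBL2 with the MuvB complex and by FOXM1, switches on the genes of G2 and mitosis. Thyroid follicular cells divide little in the adult gland, and both thyrotropin (TSH) and cAMP, the messenger downstream of the TSH receptor, act on thyroid growth and function.

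The cells came from 1 genetically modified hESC line, ESIBIe003-A-6, obtained by selecting clones with neomycin, which carries GFP at an NKX2-1 allele and transgenes for NKX2-1 and PAX8 that doxycycline turns on, so all libraries share this background and an earlier exposure to Activin A and doxycycline. NKX2-1 GFP+ cells were sorted from pooled wells at days 16, 23, 31, 38 and 45 of differentiation, and 2 libraries were made for each day. The labels name cAMP for days 16, 23 and 31, TSH with dexamethasone (TSH DEX, a synthetic glucocorticoid) for day 38, and TSH with SB (SB431542, an inhibitor of the TGF-beta receptor kinase) for day 45. By the study's protocol the day 16 cells were collected as cAMP treatment began, and dexamethasone was still present at day 45. The same protocol lets TSH with dexamethasone take the place of cAMP shortly before the day 31 collection, for which the labels name cAMP, and gives the start of SB431542 as either just before or at the day 38 collection. Whether the day 31 cells had already met the new medium is not given in the sources used here. Time and medium changed together, so their parts in any difference between days cannot be told apart here, and cells kept in cAMP to days 38 and 45 are not analysed here. The 2 libraries of a day came from separate pools of wells of the same line, so p-values measure the spread between such pools.

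Total counts ran from 7247268 in the first day 45 library to 10333933 in the first day 38 library. Levels are CPM, the counts of a gene relative to the total after scaling by the trimmed mean of M-values (TMM), on which a count of 3, taken as the floor of detection, corresponds to 0.307 to 0.436 CPM. Between 0.195% and 0.294% of a library's counts fell on the 44 genes. Both day 45 libraries (0.195% and 0.215%) lay below the other 8.

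The libraries carried thyroid markers throughout. NKX2-1 stood at 90.0 and 83.9 CPM at day 16, at 154 and 133 CPM at day 38 and at 58.1 and 66.7 CPM at day 45, and PAX8 lay between 477 and 728 CPM in every library. TG, the gene of thyroglobulin, went from 10.7 and 11.7 CPM at day 16 to 200 and 212 CPM at day 31 and 5547 and 4875 CPM at day 38. TSHR, the TSH receptor gene, was at 17.5 and 8.87 CPM at day 16, at 77.7 and 77.3 CPM at day 31 and at 150 and 151 CPM at day 38. Genes of other cell types moved over the same days. The summed level of 6 fibroblast markers was 682 and 744 CPM at day 31 and 2373 and 2447 CPM at day 38, with COL1A1 the most abundant at day 31 and COL1A2 at day 38. The sum of 5 cardiovascular and muscle markers was 29.1 and 27.7 CPM at day 31 and 222 and 194 CPM at day 38, led by MYH6, while the endothelial PECAM1 was at most 1.53 CPM in any library. Sums for 4 airway basal and 4 goblet cell markers were highest at day 45, at 54.3 and 43.7 CPM (led by KRT5) and at 105 and 56.6 CPM (led by MUC5B). The sum of 5 lung epithelial markers was highest at day 31, at 502 and 514 CPM (499 and 502 CPM from SFTPB), and SFTPC was never above 0.108 CPM. The sum of 5 pluripotency markers went from 198 and 183 CPM at day 16 to 10.7 and 16.4 CPM at day 45, with DPPA4 the most abundant in every library, and POU5F1 was at most 0.114 CPM. Forebrain markers, led by TUBB3, summed to 34.1 CPM at most. The part of these cells in the differences below was not tested. In bulk libraries, fewer cells of a type and less RNA per cell cannot be told apart.

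Each step between consecutive days, the whole span and days 16 and 31 were compared by edgeR's quasi-likelihood test, and a gene was called changed at a Benjamini-Hochberg adjusted p under 0.05 over all 21014 genes. From day 16 to day 23, 1 of the 44 genes was called higher and 7 lower, where 10.9% of all genes tested were called (5.60% higher and 5.33% lower). From day 23 to day 31, 3 were called higher and none lower (1 lower at an unadjusted p under 0.05, none with DESeq2), beside 2.25% of all genes (1.58% higher and 0.666% lower). From day 31 to day 38, 3 were called higher and 11 lower, beside 15.0% of all genes (8.80% higher and 6.23% lower). From day 38 to day 45, none was called higher (none at an unadjusted p under 0.05 and none with DESeq2) and 8 lower, beside 11.2% of all genes (4.85% higher and 6.35% lower). Over the whole span from day 16 to day 45, 3 were called higher and 21 lower, against 24.6% of all genes (12.9% higher and 11.7% lower). Between days 16 and 31, both in the cAMP labelled group, 3 were called higher and 5 lower, beside 12.9% of all genes (7.0% higher and 5.87% lower). A test for any change among the 5 days called 28 of the 44 genes, beside 36.3% of all genes. The 3 genes called higher at day 45 than at day 16 were the 3 D-type cyclin genes, and none of the other 41 was. As a background for statements on overlap, the libraries of the 2 days did not overlap for 48.3% of all genes between days 16 and 23, 39.3% between days 23 and 31, 49.2% between days 16 and 31, 57.0% between days 31 and 38, 54.8% between days 38 and 45 and 57.8% between days 16 and 45.

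**Figure D1:**
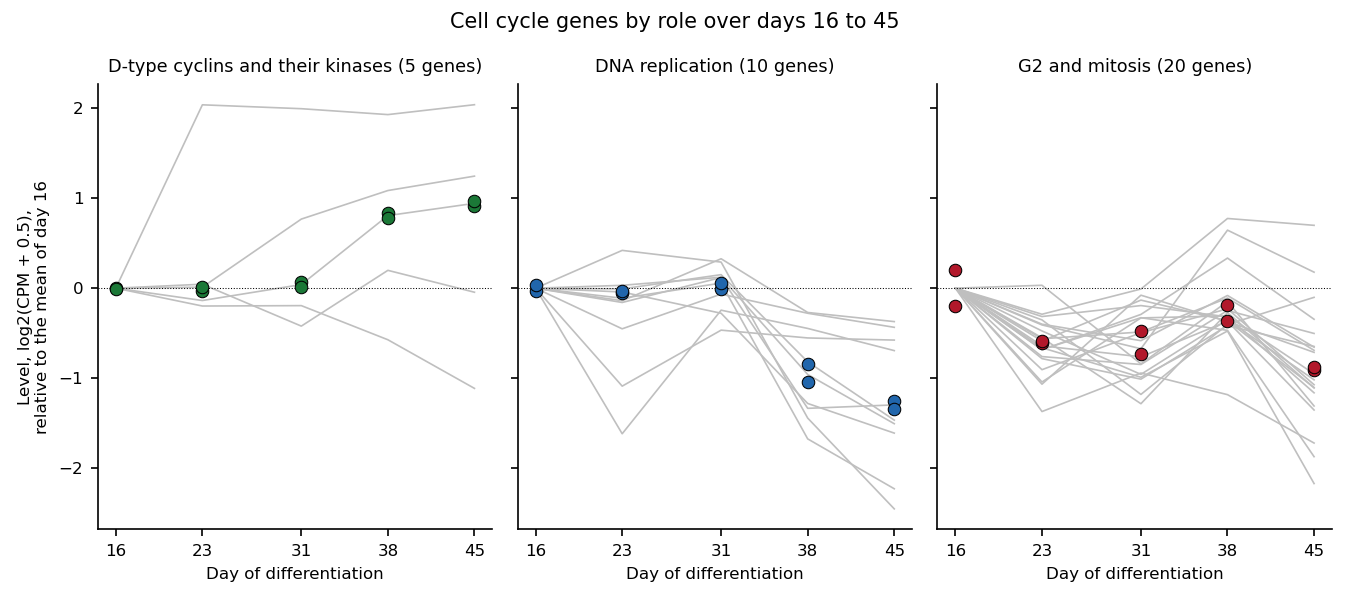
Level of each gene as log2(CPM + 0.5) relative to its mean at day 16, against day of differentiation, for 3 groups of cell cycle genes. Grey lines are genes (mean of 2 libraries) and each filled point is the median over the genes in 1 library. By its median the group of D-type cyclins and their kinases (5 genes, CDK4 and CDK6 among them) ends above its day 16 level. The replication group stays near its day 16 level to day 31 and lies below it at days 38 and 45. The G2 and mitosis group is low at day 23, nearer its day 16 level at day 38 and lowest at day 45.

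The 3 D-type cyclin genes rose, each with its call at another step. CCND3 stood at 5.33 and 5.30 CPM at day 16, at 25.3 and 21.5 CPM at day 23, at 20.8 and 24.6 CPM at day 31, at 21.2 and 22.0 CPM at day 38 and at 26.7 and 20.4 CPM at day 45. Both day 16 libraries lay far below the other 8, which overlapped one another. The gene rose by a log2 fold change of 2.14 ± 0.34 (SE, n = 2 libraries a day) between days 16 and 23 (edgeR adjusted p = 2.2e-05), and no later step passed the test. CCND1 stood at 71.8 and 70.6 CPM at day 16, 71.8 and 71.7 CPM at day 23, 123 and 120 CPM at day 31, 156 and 147 CPM at day 38 and 160 and 179 CPM at day 45. Its libraries did not overlap between days from day 23 on. The rise between days 23 and 31 was 0.76 ± 0.15 (edgeR adjusted p = 0.00186), and the later steps were 0.32 ± 0.15 and 0.16 ± 0.15 and did not pass. CCND2, the most abundant of the 3, was at 430 and 386 CPM at day 16, 372 and 369 CPM at day 23, 426 and 412 CPM at day 31, 728 and 697 CPM at day 38 and 769 and 797 CPM at day 45. Every library of days 38 and 45 lay above every earlier one. CCND2 rose by 0.77 ± 0.11 between days 31 and 38 (edgeR adjusted p = 4.9e-06). All of these calls held when any 1 library was left out.

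Of the 2 kinases that bind D-type cyclins, CDK6 fell and CDK4 passed no test. CDK6 stood at 327 and 433 CPM at day 16, 331 and 325 CPM at day 23, 330 and 328 CPM at day 31, 247 and 259 CPM at day 38 and 181 and 167 CPM at day 45. From day 38 on, the libraries of each day lay below those of the collection before. The changes were -0.38 ± 0.13 (day 38 against day 31, edgeR adjusted p = 0.0461), -0.54 ± 0.13 (day 45 against day 38, adjusted p = 0.00494) and -1.13 ± 0.13 over the whole span (adjusted p = 2.7e-08). The first of these calls was lost without either day 23 library, either day 31 library or either day 38 library (-0.41 to -0.34), and the second without the second day 38 library (-0.50) or the second day 45 library (-0.48). CDK4 lay between 22.5 and 40.4 CPM in all libraries and passed no test, with -0.05 ± 0.27 from day 16 to day 45. By the GENCODE annotation (release 44, GRCh38), exons of TSPAN31 on the other strand cover 44.2% of the exon bases of CDK4, and the strand setting of the counting is not given in the sources used here, so its level is uncertain. Per kilobase of annotated exon, the order of the mean levels at day 16 was CCND2 (51.1 CPM per kb), CDK6 (31), CCND1 (15.0), CDK4 (10.7) and CCND3 (0.923). At day 45 it was CCND2 (98.0 CPM per kb), CCND1 (35.6), CDK6 (14.2), CDK4 (10.4) and CCND3 (4.09), and the libraries of CCND1 and CDK6 did not overlap on this scale on either day.

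**Figure D2:**
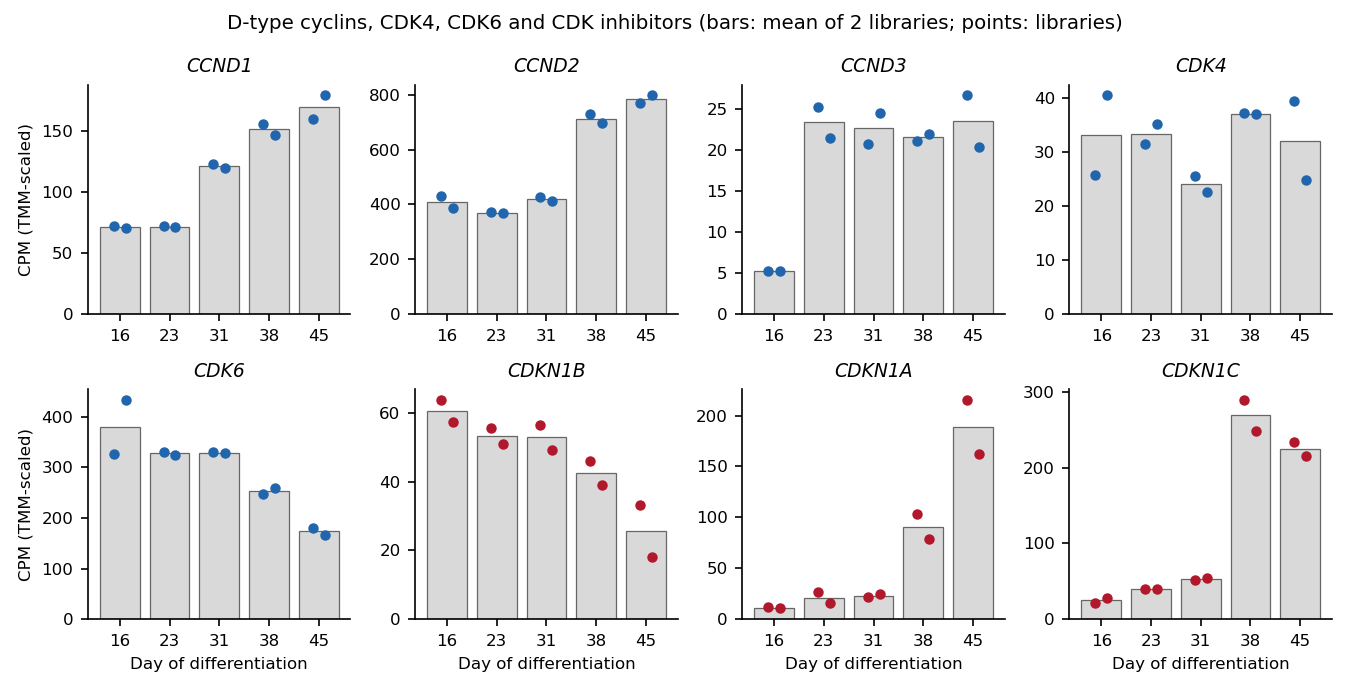
CPM (TMM-scaled, linear axes from 0) of 3 D-type cyclin genes, CDK4, CDK6 and 3 CDK inhibitor genes at 5 days. Bars are means of 2 libraries and points are the libraries. CCND3, CCND1 and CCND2 step up at days 23, 31 and 38, CDK6 and CDKN1B are lowest at day 45, and CDKN1A and CDKN1C are highest at days 38 and 45.

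Genes of CDK inhibitors, the proteins that hold cyclin and kinase pairs inactive, moved in both directions. CDKN1B, which encodes p27, stood at 63.7 and 57.5 CPM at day 16, 55.6 and 51.0 CPM at day 23, 56.6 and 49.2 CPM at day 31, 46.0 and 39.0 CPM at day 38 and 33.1 and 18.0 CPM at day 45. Day 45 lay below all other libraries, and its 2 libraries were far apart. The fall over the whole span was -1.25 ± 0.24 (edgeR adjusted p = 0.0001) and the last step was -0.74 ± 0.24 (adjusted p = 0.0367). The call of the last step was lost without the first day 31 library (-0.74), the first or second day 38 library (-0.62 and -0.86) or the second day 45 library (-0.36), and also with DESeq2, with other scalings and with only the 4 libraries compared. CDKN1A, which encodes p21, stood at 12.0 and 10.6 CPM at day 16, 26.7 and 15.5 CPM at day 23, 21.5 and 24.4 CPM at day 31, 103 and 78.2 CPM at day 38 and 215 and 162 CPM at day 45. Every day 38 library was above all earlier ones and every day 45 library above those of day 38. CDKN1A rose by 1.98 ± 0.22 between days 31 and 38 (adjusted p = 1.8e-08), by 1.06 ± 0.21 between days 38 and 45 (adjusted p = 0.00041) and by 4.05 ± 0.24 over the whole span (edgeR, adjusted p = 2.2e-15).

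CDKN1C, which encodes p57, stood at 21.4 and 27.8 CPM at day 16, 39.7 and 39.6 CPM at day 23, 51.5 and 54.6 CPM at day 31, 289 and 249 CPM at day 38 and 234 and 215 CPM at day 45. It rose by 2.34 ± 0.16 between days 31 and 38 (edgeR adjusted p = 1.4e-13) and did not pass the test between days 38 and 45 (-0.26 ± 0.15). The day 38 and day 45 rises of CDKN1A and the day 38 rise of CDKN1C held without any 1 library. CDKN1A, CDKN1C and CDKN2B were also called higher at day 23 than at day 16, by 0.90 ± 0.24, 0.68 ± 0.17 and 2.20 ± 0.66 (edgeR adjusted p = 0.0102, 0.00478 and 0.0239). The CDKN1A call at that step was lost without the second day 16 library (0.81) or the first day 23 library (0.46), and the CDKN1C call without the first day 16 library (0.52). All 3 of these calls were lost in the fit of only the 4 libraries compared. CDKN2B, which encodes p15 and acts on CDK4 and CDK6, was at 1.27 and 0.862 CPM at day 16, 4.77 and 5.14 CPM at day 23, 5.53 and 1.75 CPM at day 31, 13.2 and 11.8 CPM at day 38 and 9.58 and 9.61 CPM at day 45. Its rise of 3.16 ± 0.66 over the whole span (edgeR adjusted p = 0.00036) held without any 1 library. Its call at day 23 was lost without any 1 of the 4 libraries compared or the first day 38 library (1.95 to 2.52), and its call between days 31 and 38, 1.77 ± 0.59 (adjusted p = 0.0374), without the second day 31 library (1.16), the first day 38 library (1.68) or the second day 38 library (1.85). Without the first day 31 library the latter change was 2.83, and its call was also lost under scaling by library size alone. CDKN2A was listed at 0 in all 6 libraries up to day 31 and reached 2.47 CPM at most, CDKN2C and CDKN2D never exceeded 2.76 CPM, and CDKN3 lay between 1.31 and 6.52 CPM. None of these 4 passed any test.

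Of the genes for the entry into S phase, CDK2 was the one that changed. CDK2, the partner of cyclins E and A, stood at 28.2 and 34.5 CPM at day 16, 42.7 and 39.8 CPM at day 23, 52.1 and 56.9 CPM at day 31, 22.4 and 26.5 CPM at day 38 and 22.6 and 18.6 CPM at day 45. The libraries of days 16, 23 and 31 lay in rising order without overlap, and those of days 38 and 45 lay below all of them. CDK2 was higher at day 31 than at day 16 by 0.80 ± 0.24 (edgeR adjusted p = 0.0223) and was lower at day 38 than at day 31 (-1.16 ± 0.24, adjusted p = 0.0007). The second call held without any 1 library, and the first was lost without the first day 16 library (0.67) or either day 31 library (0.86 and 0.74). The genes of cyclin E, CCNE1 and CCNE2, and of the phosphatase CDC25A, which activates CDK2, passed no test. CCNE1 lay between 5.12 and 11.8 CPM, CCNE2 between 2.10 and 7.54 CPM and CDC25A between 5.33 and 11.5 CPM. Exons of INTS8 and of an unnamed gene on the other strand cover 37.1% of the exon bases of CCNE2.

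The 4 transcription factor genes all had lower levels at day 38 than at day 31, with no overlap between the libraries, and 3 of them passed the test. Of all genes tested, 57.0% did not overlap at this step and 15.0% were called (6.23% lower). E2F1, an activator of replication genes, was at 4.40 and 7.80 CPM at day 31 and at 1.40 and 2.10 CPM at day 38, a change of -1.79 ± 0.69 that did not pass (edgeR adjusted p = 0.0784). E2F2 was at 9.42 and 5.47 CPM at day 31 and at 0.864 and 1.28 CPM at day 38 (-2.78 ± 0.79, adjusted p = 0.0128), and at 2.76 and 3.6 CPM at day 45. FOXM1 was at 29.4 and 23.9 CPM at day 31, at 15.3 and 12.1 CPM at day 38 and at 10.7 and 7.75 CPM at day 45. Its first change, -0.95 ± 0.32, and that over the whole span, -1.59 ± 0.34, passed the test (edgeR adjusted p = 0.0409 and 0.00037). MYBL2 stood at 41.1 and 17.2 CPM at day 16, 15.6 and 11.3 CPM at day 31 and 7.45 and 4.08 CPM at day 38 (-1.22 ± 0.42 between days 31 and 38, adjusted p = 0.0475). The day 16 libraries of MYBL2 were far apart, and its change of -2.30 ± 0.43 over the whole span (edgeR adjusted p = 7.8e-05) was -1.56 without the first of them. E2F1 was called lower over the whole span (-1.86 ± 0.68, adjusted p = 0.0428), a call lost without the second day 16 library (-1.47), either day 38 library (-1.86 both) or either day 45 library (-1.52 and -2.34), and with only the 4 libraries compared.

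All 3 calls of transcription factor genes at day 38 depended on single libraries. That of E2F2 was lost without the first day 31 library (-2.34) or either day 38 library (-2.53 and -3.09), and that of FOXM1 without any 1 of the 4 libraries compared (-1.14 to -0.80). That of MYBL2 was lost without the second day 23 library (-1.22), either day 31 library (-0.96 and -1.43) or the second day 38 library (-0.85), and with DESeq2 or a stricter filter on low counts.

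The 6 genes of the MCM helicase, which unwinds DNA at the origins, all fell between days 31 and 38, and PCNA, RRM1, RRM2 and TYMS did not pass the test at that step. The summed level of MCM2 to MCM7 was 314 and 356 CPM at day 16, 336 and 322 CPM at day 23, 335 and 346 CPM at day 31, 155 and 130 CPM at day 38 and 109 and 104 CPM at day 45. The libraries of the first 3 days overlapped, those of day 38 lay below all of them, and those of day 45 were the lowest. Over the 10 replication genes the median log2 fold change was -0.99 between days 31 and 38, with all 10 negative, and the median of all genes tested was 0.00. Beside the 6 called lower none of the 10 was called higher, also at an unadjusted p under 0.05 and with DESeq2. Of all genes tested 6.23% were called lower at this step and 8.80% higher. At the same step 3 of 6 fibroblast markers were called higher and 1 lower, and 3 of 5 cardiovascular and muscle markers were called higher. Of 7 thyroid markers 3 were called higher, of the 4 forebrain markers tested 1 was, and of 4 goblet cell markers 2 were (sums of 4.61 and 6.05 CPM, then 50 and 36.6 CPM). Of the 5 pluripotency markers 4 were tested and 2 called lower (139 and 118 CPM, then 28.5 and 28.4 CPM), and of the 5 lung epithelial markers 4 were tested and 1 called lower (502 and 514 CPM, then 10.5 and 11.9 CPM). The share of counts on RN7SK, a small nuclear RNA, was 2.92% and 3.86% in the day 31 libraries and 8.17% and 6.76% in those of day 38. The part of these markers and of RN7SK in the values of the replication genes was not tested.

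MCM2 stood at 50.3 and 50.9 CPM at day 16, 54.2 and 40.4 CPM at day 23, 52.1 and 53.2 CPM at day 31, 18.0 and 13.4 CPM at day 38 and 12.9 and 8.41 CPM at day 45. Its log2 fold change between days 31 and 38 was -1.74 ± 0.26 (edgeR adjusted p = 5.1e-06). MCM5 was at 36.6 and 27.5 CPM at day 31, 9.72 and 8.73 CPM at day 38 and 2.76 and 6.66 CPM at day 45, and its change at day 38, -1.80 ± 0.35, was the largest of the 6 (adjusted p = 0.00024). MCM4 was at 63.3 and 56.8 CPM at day 31 and 20.2 and 23.1 CPM at day 38 (-1.47 ± 0.23, edgeR adjusted p = 1.3e-05). The libraries of days 31 and 38 did not overlap for any of the 6, nor for 57.0% of all genes tested. MCM3 (-1.09 ± 0.24), MCM7 (-1.01 ± 0.22) and MCM6 (-0.98 ± 0.25) changed less, with edgeR adjusted p = 0.00107, 0.00097 and 0.0059. The MCM6 call was lost without the first day 31 library (-0.87) or the second day 38 library (-0.84), and the other 5 held without any 1 library. None of the 6 was called between days 38 and 45, where the changes ran from -0.94 to 0.04, nor at either earlier step. Over the whole span all 6 were called lower, beside 11.7% of all genes, from -1.32 ± 0.23 for MCM4 to -2.45 ± 0.37 for MCM5. These values moved to -0.97 for MCM6 without the second day 16 library (-1.57 ± 0.26 with it) and to -3.25 for MCM5 without the second day 45 library. Exons of an unnamed gene on the other strand cover 23.6% of the exon bases of MCM2.

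Of the genes that supply nucleotides and the clamp of the polymerase, RRM2 alone passed a test. RRM2, the regulated subunit of ribonucleotide reductase, stood at 21.2 and 23.2 CPM at day 16, 8.65 and 5.49 CPM at day 23, 18.4 and 18.9 CPM at day 31, 11.7 and 22.2 CPM at day 38 and 10.5 and 17.4 CPM at day 45. Only the 2 day 23 libraries lay below all others. The gene was called lower at day 23 (-1.65 ± 0.39, edgeR adjusted p = 0.00348) and higher again at day 31 (1.40 ± 0.39, adjusted p = 0.0444). The first call was lost without the second day 23 library (-1.36), and the second without either day 23 library (1.76 and 1.11), either day 31 library (1.41 and 1.37) or the second day 38 library (1.40), with a stricter filter on low counts and with only the 4 libraries compared. RRM1, the other subunit of the enzyme, lay between 44.9 and 74.6 CPM, with a change of -0.44 ± 0.20 over the whole span that did not pass (edgeR adjusted p = 0.101). PCNA, the sliding clamp, passed no test, and its 2 libraries were far apart at day 16 (15.9 and 41.6 CPM) and at day 45 (11.2 and 34.8 CPM). TYMS, which makes thymidylate, was at 0.887 to 7.32 CPM and passed no test, and 47.9% of its exon bases lie under exons of ENOSF1 and TYMSOS on the other strand. RRM2 and PCNA have 3 named pseudogenes each, with which reads may be shared.

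The 20 genes of G2 and mitosis were lower at day 23 than at day 16 and lowest at day 45 as a sum. Their summed level was 1135 and 1361 CPM at day 16, 797 and 822 CPM at day 23, 1030 and 887 CPM at day 31, 1113 and 1063 CPM at day 38 and 604 and 775 CPM at day 45. All 4 libraries of days 23 and 45 lay below the other 6, those of day 45 lowest, and days 31 and 38 lay between these and day 16. Of the 20 genes, 17 had their highest mean at day 16 and 3 at day 38, and 12 had their lowest at day 45. The median log2 fold change of the 20 was -0.63 from day 16 to day 23, -0.02 to day 31, 0.49 to day 38 and -0.67 to day 45.

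At day 23 all 20 genes had negative changes and 6 were called lower, beside 5.33% of all genes. Over the same step the share of counts on RN7SK was 6.82% and 7.11% and then 4.40% and 4.42%. The sum of the lung epithelial markers was 3.93 and 4.31 CPM and then 168 and 149 CPM, with 1 of 4 tested called higher, and that of the airway basal markers was 25.2 and 15.5 CPM and then 5.99 and 5.60 CPM, with 1 of 4 called lower. Of the 6 fibroblast markers 2 were called higher and 1 lower, of 7 thyroid markers 4 higher and 2 lower, of 5 cardiovascular and muscle markers 1 in each direction, of 4 goblet cell markers 1 higher and of the 4 pluripotency markers tested 1 lower. The part of RN7SK and of these markers in the values of the G2 and mitosis genes was not tested. CENPE, a kinesin of the kinetochore, stood at 90.2 and 99.0 CPM at day 16, 47.0 and 42.9 CPM at day 23, 99.4 and 80.6 CPM at day 31, 65.1 and 81.9 CPM at day 38 and 57.1 and 57.9 CPM at day 45. It fell to day 23 (-1.07 ± 0.18, edgeR adjusted p = 7.2e-05) and rose again to day 31 (1.00 ± 0.18, adjusted p = 0.00075). TPX2, a spindle assembly factor, was at 91.0 and 104 CPM at day 16 and 49.5 and 54.1 CPM at day 23 (-0.91 ± 0.19, edgeR adjusted p = 0.0009). For both genes the libraries of days 16 and 23 were well apart. MKI67 (-0.59 ± 0.16), which encodes the proliferation marker Ki-67, TOP2A (-0.70 ± 0.16), a topoisomerase that untangles chromosomes, CCNB1 (-0.75 ± 0.21), the gene of cyclin B1, and its kinase CDK1 (-0.82 ± 0.26) also passed at day 23 (edgeR adjusted p = 0.0112, 0.00362, 0.0176 and 0.0393). The MKI67 call was lost without the first day 16 library (-0.42) or the first day 23 library (-0.52), that of TOP2A without the second day 16 library (-0.42) or the second day 23 library (-0.55) and that of CCNB1 without the second day 16 library (-0.71) or the first day 23 library (-0.52). That of CDK1 was lost without the second day 16 library (-0.52), either day 23 library (-0.82 and -0.81) or either day 38 library (-0.82 both), under scaling by library size alone and with only the 4 libraries compared. The CENPE and TPX2 falls held without any 1 library, and the later rise of CENPE was lost without the first day 31 library (0.84).

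Between days 16 and 31 no gene of the 20 was called higher and 5 were called lower, beside 5.87% of all genes. In either direction 12.9% of all genes were called. AURKA (-1.21 ± 0.40), the gene of the centrosome kinase Aurora A, CDK1 (-1.04 ± 0.27), BUB1 (-0.95 ± 0.29), a spindle checkpoint kinase gene, CCNA2 (-0.93 ± 0.30), the gene of cyclin A2, and CCNB1 (-0.85 ± 0.21) were the 5, with edgeR adjusted p from 0.00478 for CCNB1 to 0.0413 for AURKA. All 5 depended on single libraries. Without the second day 31 library the changes were -0.77 for CCNB1, -0.88 for CDK1, -0.60 for BUB1, -0.56 for CCNA2 and -1.55 for AURKA, and none passed. Without the second day 16 library those of CDK1 (-0.74), BUB1 (-0.76), CCNA2 (-0.67) and AURKA (-1.33) did not pass. The call of AURKA was also lost without the first library of day 16 (-1.06) or day 31 (-0.92), and those of AURKA and CCNA2 without either day 38 library, with values of -1.21 and -0.93 as before. With only the 4 libraries compared AURKA, BUB1 and CCNA2 lost their calls, and under scaling by library size alone AURKA and CCNA2 did. Over the same days RN7SK took 6.82% and 7.11% of the counts and then 2.92% and 3.86%. The lung epithelial sum went from 3.93 and 4.31 CPM to 502 and 514 CPM. Of 6 fibroblast markers 4 were called higher and 1 lower, of 7 thyroid markers 4 and 3, and of 5 cardiovascular and muscle markers 2 and 1. Of airway basal, goblet, lung epithelial and forebrain markers 1 each was called higher, and 2 of 4 tested pluripotency markers lower. Their part was not tested.

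At day 38, when the MCM genes fell, no gene of G2 and mitosis was called lower and 2 were called higher. None was lower at an unadjusted p under 0.05 or with DESeq2 either, and 5 were higher at an unadjusted p under 0.05. The 2 called are 10.0% of the 20, beside 15.0% of all genes called at this step (8.80% higher and 6.23% lower). Nothing is read from this count about the list. TOP2A stood at 150 and 214 CPM at day 16, 124 and 100 CPM at day 23, 153 and 140 CPM at day 31, 226 and 226 CPM at day 38 and 119 and 167 CPM at day 45. Both day 38 libraries were above all others. The gene rose by 0.62 ± 0.16 between days 31 and 38 (edgeR adjusted p = 0.00652). UBE2C, the ubiquitin-conjugating enzyme gene of the anaphase-promoting complex, was at 8.80 and 6.63 CPM at day 31 and at 25.5 and 15.3 CPM at day 38 (1.40 ± 0.41, adjusted p = 0.0161), and it has 5 named pseudogenes. The TOP2A call was lost without the second day 31 library (0.55) and under scaling by library size alone, under which the median of all genes tested moved to -0.20 at this step. That of UBE2C was lost without either day 31 library (1.62 and 1.20) or the first day 38 library (0.98). MKI67 stood at 212 and 182 CPM at day 31 and at 172 and 163 CPM at day 38 (-0.24 ± 0.16, edgeR adjusted p = 0.377), and CCNB1 at 38 and 34.0 CPM and at 54.4 and 55.0 CPM (0.60 ± 0.21, adjusted p = 0.0512). The libraries of the 2 days overlapped for 8 of the 20 genes, both day 38 libraries were above for 10 and below for 2. Beside these 12 of 20 genes, 57.0% of all genes tested did not overlap at this step. The difference between the replication genes and the genes of G2 and mitosis was not tested as such.

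At day 45, 19 of the 20 genes had negative changes from day 38 and 6 were called lower, beside 6.35% of all genes. Over the same step 3 of 6 fibroblast markers and 2 of the 4 tested lung epithelial markers (sums of 10.5 and 11.9 CPM, then 76.8 and 61.2 CPM) were called higher, 1 of the 4 tested pluripotency markers was called lower, and RN7SK took 8.17% and 6.76% and then 7.04% and 5.14% of the counts. Of 7 thyroid markers 1 was called higher and 3 lower. Of 4 airway basal markers 1 was called higher (sums of 26.8 and 24.3 CPM, then 54.3 and 43.7 CPM), and of 4 goblet cell markers 1 was called higher and 1 lower (50 and 36.6 CPM, then 105 and 56.6 CPM). No cardiovascular and muscle marker and no forebrain marker was called by edgeR or DESeq2, nor passed at an unadjusted p under 0.05. The part of these in the values was not tested. BUB1 stood at 37.0 and 47.8 CPM at day 16, 29.3 and 23.8 CPM at day 23, 27.9 and 15.7 CPM at day 31, 33.1 and 27.4 CPM at day 38 and 8.28 and 9.72 CPM at day 45. Both day 45 libraries were below all others. The change between days 38 and 45 was -1.74 ± 0.31 (edgeR adjusted p = 0.00011). BUB1B, which encodes the checkpoint protein BUBR1, was at 32.5 and 28.5 CPM at day 38 and at 9.44 and 13.3 CPM at day 45 (-1.41 ± 0.29, adjusted p = 0.00064). CENPF, a kinetochore protein gene, was at 176 in both day 38 libraries and at 84.1 and 114 CPM at day 45 (-0.83 ± 0.16, edgeR adjusted p = 0.0003). These 3 falls held without any 1 library. TPX2 (-0.85 ± 0.19), MKI67 (-0.71 ± 0.16) and TOP2A (-0.66 ± 0.16) passed as well (edgeR adjusted p = 0.00208, 0.00218 and 0.00555). MKI67 was at 81.4 and 123 CPM at day 45 and its call was lost without the first of these libraries (-0.45), as was that of TOP2A (-0.44), and that of TPX2 was lost without the second (-0.71). CDK6 was the 1 gene of the 44 called lower both between days 31 and 38 and between days 38 and 45.

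Over the whole span 10 of the 20 genes were called lower and none higher, beside 11.7% of all genes called lower and 12.9% higher. Between the same days all 6 fibroblast markers, 3 of 4 goblet cell, 3 of 5 cardiovascular and muscle, 2 of 4 airway basal, 2 of 4 tested lung epithelial and 1 of 4 tested forebrain markers were called higher, 3 of 4 tested pluripotency markers lower, and of 7 thyroid markers 4 higher and 3 lower. Their part in these values was not tested. BUB1 (-2.23 ± 0.31), BUB1B (-1.92 ± 0.29), CENPF (-1.17 ± 0.16), MKI67 (-1.08 ± 0.16), TPX2 (-1.08 ± 0.19) and CENPE (-0.72 ± 0.18) kept their calls without any 1 library, with edgeR adjusted p of 0.00271 or less. CDC25C (-1.80 ± 0.68), a phosphatase gene that activates CDK1, AURKB (-1.45 ± 0.54), the gene of the chromosomal passenger kinase Aurora B, CDC20 (-1.40 ± 0.46), an activator of the anaphase-promoting complex, and CCNA2 (-1.05 ± 0.31) passed (edgeR adjusted p = 0.0478, 0.0457, 0.0228 and 0.00927) but lost their calls without the second day 16 library (-1.53, -0.97, -1.17 and -0.80) or the second day 45 library (-1.26, -1.68, -1.05 and -0.91). The call of CDC25C was also lost without the first day 16 library (-2.04) or either day 38 library (-1.80 both), that of AURKB without the first day 45 library (-1.27) or either day 38 library (-1.45 both), and the change of CDC25C was -2.61 without the first day 45 library. Both calls were also lost with only the 4 libraries compared. CCNB2, PLK1, AURKA, BIRC5, CENPA and KIF11 were among those that did not pass, with changes from -1.13 ± 0.50 for BIRC5, the gene of survivin, to 0.75 ± 0.78 for CENPA, the centromeric histone gene, which lay between 1.60 and 6.01 CPM.

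**Figure D3:**
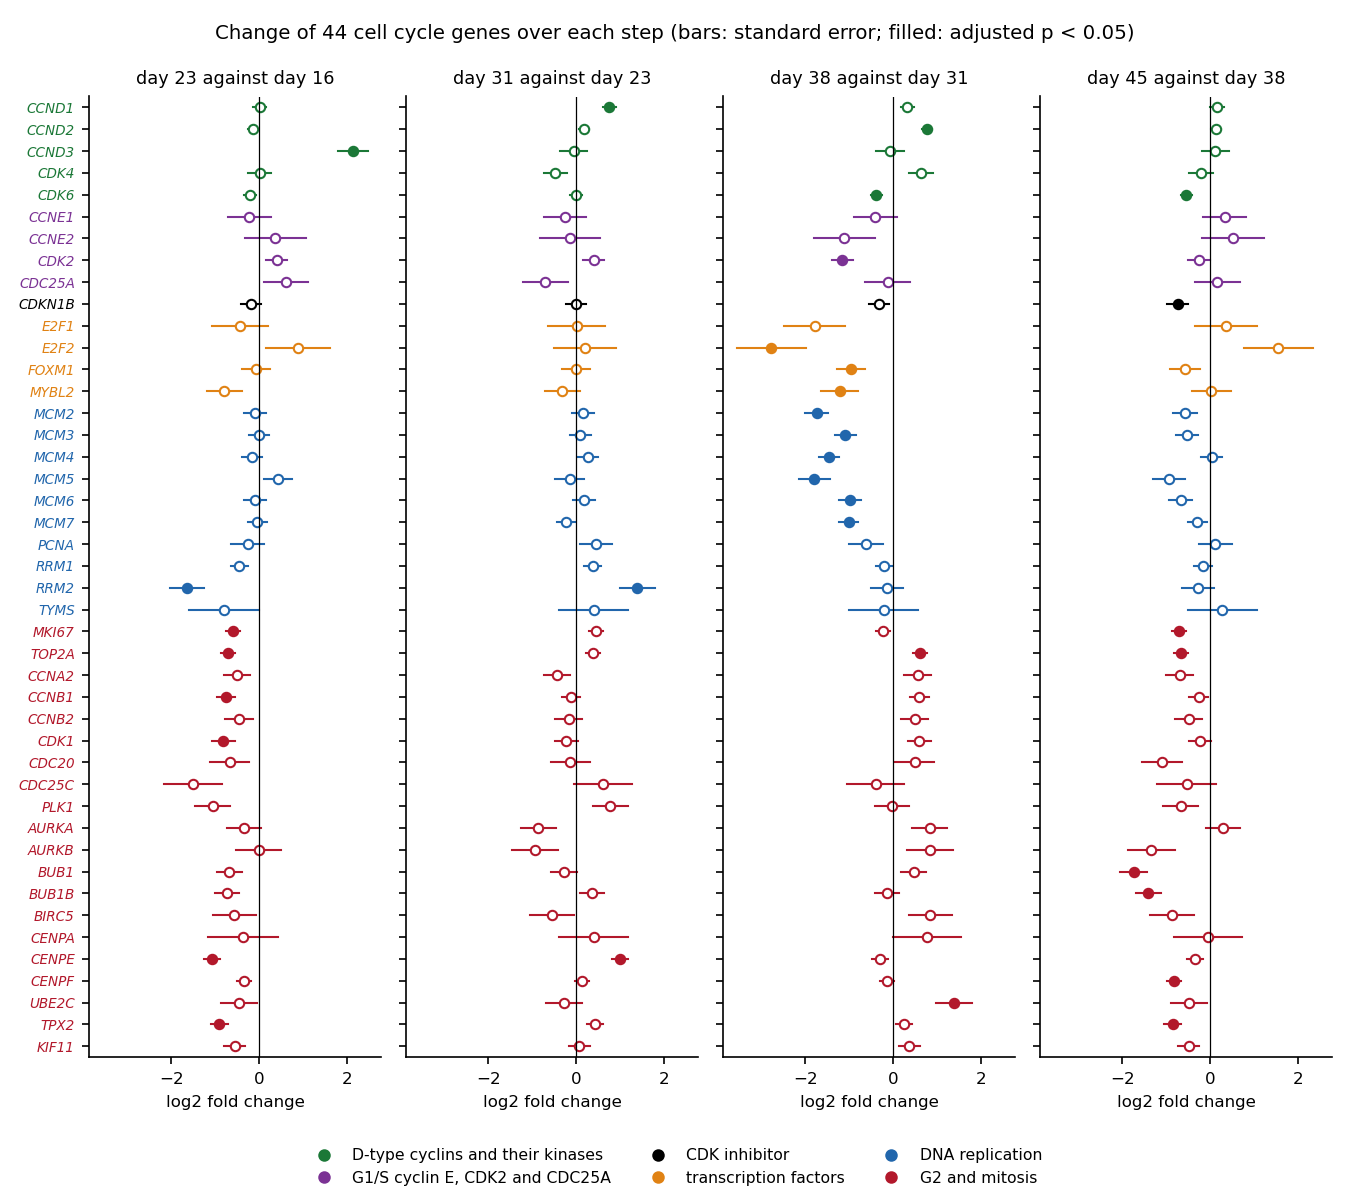
Log2 fold change of each of 44 genes (rows, coloured by role) over 4 steps between consecutive days (panels). Bars are standard errors and filled points passed the edgeR test at an adjusted p under 0.05. The 6 MCM genes are filled and negative at day 38 and all filled genes of G2 and mitosis are negative at days 23 and 45.

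Other cell cycle genes were counted in lists of 115 further genes that share no member with the 44. Of 30 other S phase genes, 9 were called lower and none higher between days 31 and 38 by edgeR and by DESeq2 (18 and none at an unadjusted p under 0.05), with a median of -0.75. HELLS, a chromatin remodeller gene, went from 92.8 and 98.4 CPM to 24.0 and 31.1 CPM (-1.80 ± 0.23, edgeR adjusted p = 2.1e-07), and CDCA7, its activator, from 12.3 and 7.33 CPM to 4.0 and 1.51 CPM (-1.82 ± 0.56, adjusted p = 0.0216). The HELLS call held without any 1 library, whereas that of CDCA7 was lost without the first day 31 library (-1.40) or the second day 38 library (-1.29) and was -2.69 without the first day 38 library. Of these 30 genes, 1 was called at day 23 (RAD51AP1, a recombination gene, -1.51 ± 0.49), none at day 31 and none at day 45 (1 higher with DESeq2, and 1 higher and 2 lower at an unadjusted p under 0.05), and 16 were called lower over the whole span. The 16 are 53.3% of the list, beside 24.6% of all genes called over that span (11.7% lower). The 1 called at day 23 is 3.33% of the list, beside 10.9% of all genes. At days 31 and 45, 2.25% and 11.2% of all genes were called. RAD51AP1 moved to -0.87 without the first day 23 library and to -2.66 without the second, and its call was lost without the first of them, either day 16 library (-1.64 and -1.34) or either day 31 library (-1.51 and -1.49), and with DESeq2.

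Of 38 other G2/M genes, 6 were called lower at day 23, none in either direction at day 31 (2 higher at an unadjusted p under 0.05, none with DESeq2), 2 higher and 3 lower at day 38, 7 lower at day 45 and 18 lower over the whole span. The 5 called at day 38 are 13.2% of the list, beside 15.0% of all genes. The calls at day 23, at day 45 and over the whole span are 15.8%, 18.4% and 47.4%, beside 10.9%, 11.2% and 24.6%. The medians of the 38 genes over the 4 steps were -0.49, 0.09, 0.06 and -0.45. At day 23, GAS2L3, a cytoskeleton linker gene (-1.33 ± 0.30), and DLGAP5, a spindle gene (-1.07 ± 0.29), had the largest changes among those called lower, the second of which lost its call without the second day 16 library (-0.96) or the second day 23 library (-0.87). At day 38 the 2 called higher were CBX5, which encodes the heterochromatin protein HP1 alpha, at 485 and 446 CPM and then 748 and 707 CPM (0.64 ± 0.12, edgeR adjusted p = 9.7e-05), and HMGB2, a chromatin protein gene (0.74 ± 0.22, adjusted p = 0.0191). HMGB2 lost its call without the second day 31 library (0.56) or either day 38 library (0.72 and 0.76), and under scaling by library size alone. RANGAP1 (-1.36 ± 0.27), a nuclear transport gene, and SMC4 (-0.82 ± 0.15), a condensin gene, were the most lowered at day 38, and both calls held without any 1 library. Exons of IFT80 and TRIM59 on the other strand cover 22% of the exon bases of SMC4. HJURP (-1.69 ± 0.41), the chaperone gene of the centromeric histone, and TTK (-1.05 ± 0.31), a spindle checkpoint kinase gene, had the largest changes among those called lower at day 45. HJURP lost its call without the first day 38 library (-1.33) and TTK without any 1 of the 4 libraries compared (-1.12 to -0.98).

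**Figure D4:**
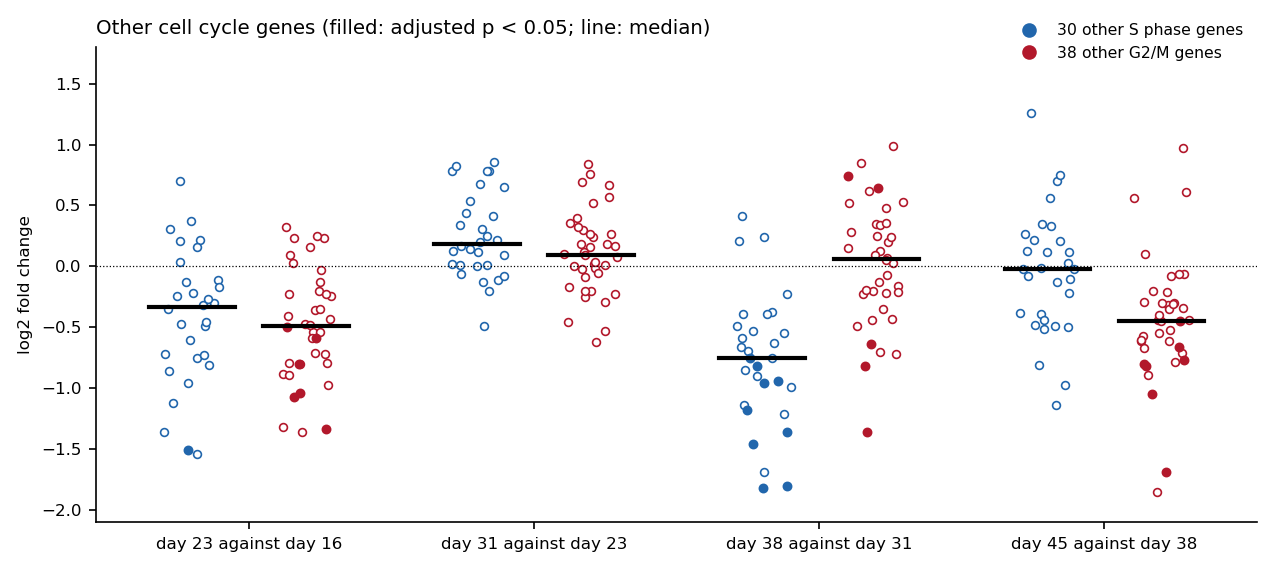
Log2 fold changes of 30 other S phase genes (blue) and 38 other G2/M genes (red) over 4 steps. Each point is a gene, filled where the edgeR test passed at an adjusted p under 0.05, and black lines are medians. At day 38 the S phase genes have a median of -0.75 and the G2/M genes one of 0.06.

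Among 13 genes of origin licensing and firing, ORC1 (-1.75 ± 0.49), a subunit of the origin recognition complex, and CDC6 (-1.27 ± 0.41), which loads the MCM helicase, were called lower at day 38 (edgeR adjusted p = 0.0113 and 0.0288). The ORC1 call was lost without the second day 31 library (-1.34) or either day 38 library (-1.72 and -1.78), and the CDC6 call without either day 31 library (-1.12 and -1.41) or the second day 38 library (-0.83). CDC6 was higher again at day 45 (1.41 ± 0.41, adjusted p = 0.0177), where CDC7, the kinase gene that fires origins, fell (-1.55 ± 0.34, edgeR adjusted p = 0.00143). The later CDC6 call was lost without the second day 38 library (0.98) or either day 45 library (1.45 and 1.38), and without the first day 38 library the 2 changes of CDC6 were -1.91 and 2.05. Over the whole span 4 of the 13 were called lower and none higher. The 2 of 13 called at day 38 are 15.4%, beside 15.0% of all genes called at that step (6.23% lower), and the 4 over the whole span are 30.8%, beside 24.6% of all genes (11.7% lower), and nothing is read from these small counts about the list.

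Of 16 genes of the RB family, the other E2F factors and the DREAM complex, edgeR called 1 higher and 1 lower at day 38 and none at the other 3 steps, where DESeq2 called none either and an unadjusted p under 0.05 gave 1 higher and 1 lower at day 23, 1 higher and 1 lower at day 31 and 3 lower at day 45. RB1, the retinoblastoma gene, stood at 114 and 94.5 CPM at day 31 and at 165 and 149 CPM at day 38 (0.59 ± 0.17, edgeR adjusted p = 0.0125), and RBL1, which encodes its relative p107, at 39.5 and 48.1 CPM and at 23.3 and 19.8 CPM (-1.02 ± 0.25, adjusted p = 0.00364). The RB1 call was lost without the second day 31 library (0.45), the first day 38 library (0.51) and under scaling by library size alone, and the RBL1 call without the second library of day 31 (-0.88) or day 38 (-0.91). Over the whole span 2 of the 16 were called higher, RB1 (0.58 ± 0.17) and LIN54 (0.75 ± 0.17), a subunit gene of MuvB, and 3 lower, RBL1 (-1.13 ± 0.26), E2F5 (-1.04 ± 0.28) and TFDP2 (-0.69 ± 0.14), a partner of E2F. The call of RB1 was lost without the first day 16 library (0.30) or the second day 45 library (0.48) and with only the 4 libraries compared, and that of E2F5 without the first day 45 library (-0.55), whereas its change was -1.81 without the second. Genes are named for the whole span in these small lists after their values were seen. The share called was 12.5% at day 38 and 31.2% over the whole span, beside 15.0% and 24.6% of all genes tested, and nothing is read from these counts about the list.

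Of 11 genes of the anaphase-promoting complex, SKP2 and the checkpoints, edgeR called 1 higher and 1 lower at day 45 and none at the earlier steps. At day 38 DESeq2 called 2 of them lower and none higher, and an unadjusted p under 0.05 gave 1 higher and 2 lower. At day 23 an unadjusted p under 0.05 gave 1 lower and DESeq2 none, and at day 31 both gave none. WEE1, whose kinase holds CDK1 inactive, stood at 157 and 186 CPM at day 38 and at 259 and 295 CPM at day 45 (0.70 ± 0.14, edgeR adjusted p = 0.0004), and the call held without any 1 library. MAD2L1, a spindle checkpoint gene, was at 20.1 and 21.0 CPM and then at 7.55 and 11.1 CPM (-1.13 ± 0.37, edgeR adjusted p = 0.0412), a call lost without any 1 of these 4 libraries (-1.44 to -0.88) and under 2 other scalings. Over the whole span 2 of the 11 were called higher (WEE1 and CDK7) and 2 lower (PKMYT1 and MAD2L1), and each of these 4 calls was lost without 1 or more single libraries. With only the 4 libraries compared those of WEE1, CDK7 and MAD2L1 were lost. PKMYT1 stood at 3.93 and 7.14 CPM at day 16 and at 0.581 and 0.109 CPM at day 45. These day 45 levels are counts of 4 and 1, around the floor of 3. Exons of KREMEN2 and PAQR4 on the other strand cover 31.9% of the exon bases of PKMYT1. The 2 of 11 called at day 45 are 18.2% and the 4 over the whole span 36.4%, beside 11.2% and 24.6% of all genes tested.

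The promoters of these genes, which the choice of members did not use, were read for 3 motifs known from cell cycle genes. Promoters of 300 bases, 250 before and 50 after the start of the gene, were taken from RefSeq (GRCh38.p14) for the 33 of the 44 genes that the table holds. Both strands were searched, and overlapping matches were kept. The first motif was the E2F site written as TTTCCCGC, TTTCGCGC, TTTGCCGC or TTTGGCGC. The second motif was the cell cycle genes homology region (CHR), the element that MuvB complexes bind, written as TTTGAA or TTCGAA. The third was CCAAT, the letters that the factor NF-Y binds. None of the motifs contains another, and matches of different motifs may share bases. An E2F match was present in 6 of 8 replication promoters (75%), in 2 of 16 promoters of G2 and mitosis genes (12.5%) and in 3.33% of all 27305 promoters. A CHR match was present in 2 of the 8 (25%), in 11 of the 16 (68.8%) and in 16.6% of all promoters. A CCAAT match was present in 6 of the 8 (75%), in 13 of the 16 (81.2%) and in 35.7% of all promoters. Of the 5 genes of D-type cyclins and their kinases, the promoters held were those of CCND3, CDK4 and CDK6, and none had any of the 3 motifs. Among the 30 other S phase genes 11 of 23 promoters had an E2F match, 1 a CHR match and 17 a CCAAT match, and among the 38 other G2/M genes 1 of 33 had an E2F match, 24 a CHR match and 21 a CCAAT match.

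The 150 bases just before the start are shown for 2 MCM genes that were called lower at day 38 and for 2 genes of G2 and mitosis that were called lower at day 45, read 5′ to 3′ on the strand of the gene, with complete E2F and CHR matches in capitals. MCM6 (chr2:135876444-135876593, minus strand) and MCM7 (chr7:100101398-100101547, minus strand) hold E2F matches, and MKI67 (chr10:128126424-128126573, minus strand) and BUB1B (chr15:40160919-40161068, plus strand) hold CHR matches.
MCM6: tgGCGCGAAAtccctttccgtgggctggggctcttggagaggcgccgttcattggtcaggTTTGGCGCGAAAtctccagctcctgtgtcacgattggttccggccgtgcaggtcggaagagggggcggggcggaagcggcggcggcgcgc
MCM7: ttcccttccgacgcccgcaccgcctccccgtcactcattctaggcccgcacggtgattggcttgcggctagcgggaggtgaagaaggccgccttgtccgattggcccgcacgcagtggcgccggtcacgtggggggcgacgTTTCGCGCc
MKI67: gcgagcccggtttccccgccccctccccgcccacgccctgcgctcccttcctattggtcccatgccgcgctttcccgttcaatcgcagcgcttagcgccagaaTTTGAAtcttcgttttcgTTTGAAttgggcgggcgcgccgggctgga
BUB1B: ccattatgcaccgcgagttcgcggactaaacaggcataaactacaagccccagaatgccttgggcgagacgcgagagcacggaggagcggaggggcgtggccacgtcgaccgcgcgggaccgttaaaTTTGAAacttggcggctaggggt
Within the shown bases the E2F matches of MCM6 begin 148, 90 and 86 bases before the start, the last pair overlapping, and that of MCM7 begins 9 bases before it. In the rest of the window MCM6 has another E2F match that begins 152 bases before the start, runs into the shown bases and overlaps the first of them, and a CHR match that begins 246 bases before it, and MCM7 has another E2F match at 187 bases. No match of these 2 motifs lies in the rest of the 250 bases of the other genes shown. In MKI67 CHR matches begin 47 and 29 bases before the start and in BUB1B 1 begins 23 bases before it.

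A match describes letters in a window and shows neither a bound factor nor a cause.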

How the data were processed

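Libraries were prepared from sorted NKX2-1 GFP+ cells with the Ovation SoLo kit. Per the labels and the study's methods the authors trimmed reads with Trimmomatic, aligned them with HISAT2 to GRCh38 and counted reads per gene with HTSeq on the Ensembl GRCh38.p13 annotation. The deposited values are raw whole-number counts per gene symbol, 1 table per library. Tool versions, the strand setting and the use of molecular identifiers are not given in the sources used here. All 10 libraries were assigned to days by their labels, 2 a day.

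The members and gene lists were chosen with earlier results of these data known. Every member is named, and from each list of other cell cycle genes the 2 largest called changes in each direction at each step, all CDK inhibitors and 4 thyroid genes. A gene entered the fit when 2 or more libraries had 5 or more counts of it. The fit used edgeR 4.0.16 (R 4.3.3) with TMM factors, 1 mean per day and 5 residual degrees of freedom, and genes were tested by quasi-likelihood F tests with Benjamini-Hochberg adjustment over 21014 genes at 0.05. Standard errors were derived from each log2 fold change and its F statistic and are approximate. Alternatives were DESeq2 1.42.0, other scalings and filters, a fit of only the libraries compared, a replicate block, a minimum log2 fold change of 1 and leaving out each library. Coordinates, exon lengths and overlaps came from GENCODE 44. The variance between replicates of a day was 8.38 to 13.7 times that of counting error (chi-square per degree of freedom), so none was a duplicate. All counts were used, and with a count of 3 as the floor, limits cover counting error only.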

Additional observations from a re-analysis of the deposited data

How the results depend on the processing

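No call reversed its direction under any alternative run. Of the 65 calls of the 44 genes, 35 held when any 1 library was left out and 30 were lost in at least 1 such fit, and of the 101 calls of other cell cycle genes 43 held and 58 were lost. DESeq2 lost 2 of the 65, filterByExpr 2, library size alone 5, upper-quartile factors 1, the fit of only the libraries compared 9 and the fit without a low-count filter none. With a log2 fold change of at least 1 required, the members called were 3 (day 23 against day 16), 3 (day 31 against day 16), 9 (day 38 against day 31) and 2 (day 45 against day 38), and with only the libraries compared 5 were called for day 31 against day 16. The cause was not tested. Under library size alone the 5 D-type cyclin and kinase genes had a median of 0.06 at day 23, 0.10 at day 38 and 0.84 over the whole span. That of the replication genes was -1.21 at day 38, where the median of all genes moved to -0.20.

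With each library left out in turn the members called numbered 5 to 10 at day 23, 1 to 3 at day 31, 8 to 15 at day 38, 6 to 9 at day 45, 3 to 8 for day 31 against day 16, 19 to 28 over the whole span and 24 to 28 for any day. The median of the 5 D-type cyclin and kinase genes then ranged over the 4 steps from -0.07 to 0.02, -0.01 to 0.08, 0.27 to 0.36 and -0.08 to 0.12. That of the replication genes ranged from -0.39 to -0.08, 0.16 to 0.22, -1.16 to -0.84 and -0.62 to -0.12. That of the G2 and mitosis genes ranged from -0.78 to -0.48, -0.09 to 0.09, 0.26 to 0.61 and -0.73 to -0.54. For day 31 against day 16 the ranges of the 3 groups were 0.01 to 0.13, -0.22 to 0.06 and -0.93 to -0.38, and over the whole span 0.86 to 1.01, -1.43 to -1.07 and -1.03 to -0.85.

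The replicate numbers did not pair the libraries, since deviations of same-numbered libraries correlated at -0.0790 to 0.0898 over 10 pairs of days (13115 genes). With the replicate number as a block the members called were 8, 3, 15 and 8 over the 4 steps, 9 for day 31 against day 16, 25 over the whole span and 29 for any day, and none of the 65 calls was lost.

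With 2 libraries a day, genes of few counts such as TYMS, CENPA, CCNE2 and E2F1 had standard errors of 0.64 or more on the log2 scale.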
